A study of Mus musculus with 6 samples.

Results

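Peg10, Sgce, Mest and Copg2 are 4 genes that lie in 2 neighbouring pairs on mouse chromosome 6. Peg10 encodes a protein derived from a retrotransposon that is needed for the placenta, Sgce encodes epsilon-sarcoglycan, a membrane glycoprotein, Mest encodes a protein with an alpha/beta hydrolase fold, and Copg2 encodes a gamma subunit of the coat of COPI transport vesicles. Methylation was read at the CpGs of 2 windows of the mm10 genome, positions 4669350 to 4765517 for Peg10 and Sgce and positions 30718547 to 30901794 for Mest and Copg2. A CpG was compared when the 2 replicates of each of 3 cell types together gave it at least 10 reads. This left 144 CpGs, 33 in the Peg10-Sgce window and 111 in the Mest-Copg2 window, of 1106981 compared CpGs in the whole genome. Position and reads, not level, decided whether a CpG was included. A further 5 and 4 CpGs of the windows had a read in some library but too few to compare.

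The study asked how the DNA methylation of pluripotent cells made in different ways compares, by reduced representation bisulfite sequencing, in which DNA is cut by MspI at CCGG and short fragments are sequenced after bisulfite treatment. The level of a CpG is the share of its reads that are methylated. The 6 libraries were 2 replicates each of mESCs (embryonic stem cells of the line E14), C-iPSCs (pluripotent cells induced chemically from mouse fibroblasts) and 4F-iPSCs (pluripotent cells induced by transcription factors from mouse fibroblasts). All 3 cell types were labelled male, at passages 5 to 10 for both kinds of iPSC and 20 to 30 for mESCs.

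Both kinds of iPSC came from OG2 embryonic fibroblasts, which turn on green fluorescent protein from an Oct4 reporter, from mice of the strains C57BL/6J, 129S4/SvJaeJ and CBA/CaJ. For C-iPSCs the fibroblasts received VPA, CHIR99021, an inhibitor of the TGF-beta receptor, tranylcypromine, forskolin, AM580 and EPZ004777 with bFGF, and in a later stage DZNep, SGC0946 and 5-Aza-2′-deoxycytidine, an inhibitor of DNA methyltransferases, before a final stage with 2i and LIF. For 4F-iPSCs the fibroblasts were infected with retroviruses carrying Oct4, Sox2, Klf4 and c-Myc, and fluorescent colonies were picked. All 3 cell types were kept in serum medium with LIF and 2i (CHIR99021 and PD0325901). The labels name a layer of feeder fibroblasts, removed on gelatin before collection, while the study's methods name gelatin-coated plates. Neither says whether the replicates of a cell type are separate lines or cultures, and the starting fibroblasts are not among the libraries. Derivation, strain and passage cannot be told apart from cell type where mESCs are compared with iPSCs. The reads summed over CpGs came to 96534037 and 94215636 in 4F-iPSCs, 75077465 and 53694199 in mESCs and 91533371 and 84792206 in C-iPSCs, where replicate 1 is given before replicate 2, as in all pairs of values that follow.

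An imprinted gene is expressed from the allele of one parent, and for Peg10, Sgce and Mest that is the paternal allele. The promoter region that Peg10 shares with Sgce and the promoter of Mest acquire methylation in the oocyte and keep it on the maternal allele after fertilisation, so that somatic cells carry a mixture of methylated and unmethylated copies. ZFP57, a zinc-finger protein that helps to maintain such marks, binds the methylated hexamer TGCCGC. Bisulfite reads were not assigned to a parent here, so a level is an average over both alleles and all cells of a library.

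MspI fragments reached parts of these regions. The Peg10 and Sgce starts lie in 1 CpG island, chromosome 6 from 4746843 to 4748740, with 139 CpGs, of which 11 were compared. They stand 49 to 183 bases after the start of Peg10 (ENSMUSG00000092035.8), in exon 1, and 148 to 282 bases upstream of the outermost start of Sgce (ENSMUSG00000004631.15), which is read the other way. The 3 islands beside the main starts of Mest (ENSMUSG00000051855.15) hold 116 CpGs and 12 of the hexamers, and not 1 of these CpGs was compared. The Mest promoter islands were thus not measured. Outside these islands there were 2 short stretches, picked out after the coverage and levels had been seen. One is a block of 6 CpGs that lie 629 to 705 bases upstream of an alternative Mest start at 30733506, the other a block of 5 CpGs, 1204 to 1283 bases after the main start at 30738050, in the first intron. At Copg2 (ENSMUSG00000025607.15), 76 of the 83 CpGs of the island over the start, 30896225 to 30897049, were compared.

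The sequences of stretches at Peg10, Sgce and Mest are shown because the levels below refer to them or to CpGs beside them. All are from the GRCm38 (mm10) genome, + strand, 5′ to 3′. In the first 3, capitals mark the CpGs that were compared. In the last, the stretch between the outermost Sgce and Peg10 starts, none was compared and capitals mark the hexamer TGCCGC.
Peg10 exon 1, first compared CpGs, chr6:4747353-4747375: tcCGgactccCGatacaCGCGtt
Mest upstream block, chr6:30732791-30732888: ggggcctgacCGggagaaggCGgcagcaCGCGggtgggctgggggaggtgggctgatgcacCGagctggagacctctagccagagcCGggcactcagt
Mest intron block, chr6:30739244-30739344: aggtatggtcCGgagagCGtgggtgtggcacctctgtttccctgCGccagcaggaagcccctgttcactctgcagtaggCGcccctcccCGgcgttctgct
Between the Sgce and Peg10 starts, chr6:4747208-4747305: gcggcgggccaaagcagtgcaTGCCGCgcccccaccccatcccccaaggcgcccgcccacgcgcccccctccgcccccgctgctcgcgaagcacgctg

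The Mest upstream sequence holds 6 CpGs, all compared, and the intron sequence holds 6, of which 5 were compared. TGCCGC was searched on both strands. It occurs 3 times in the Peg10-Sgce island, including once between the starts, once in the Mest upstream sequence and not in the intron sequence. Of 32851 RefSeq promoter sequences of the same build, 11.6% hold it in their 300 bases and 5.36% in a stretch of 98 bases. A match describes letters, and no binding was measured.

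At the CpGs of Peg10 exon 1, 4F-iPSCs were most methylated, mESCs stood between and C-iPSCs were least methylated. The mean level over the 11 CpGs was 20.2% and 30.4% in mESCs 1 and 2. It was 10.0% and 3.66% in C-iPSCs 1 and 2. It was 59.7% and 60.7% in 4F-iPSCs 1 and 2. No library of one cell type overlapped those of another. The means were 60.2% ± 0.697 in 4F-iPSCs, 25.3% ± 7.21 in mESCs and 6.84% ± 4.49 in C-iPSCs (SD, n = 2 libraries). 4F-iPSCs were 53.4 percentage points above C-iPSCs and 34.9 points above mESCs, both larger than the SD between the libraries of any group. C-iPSCs minus mESCs came to -18.5 points, against an SD of 7.21 between the mESC libraries, and to -13.4 points without mESC 2. The exact two-sided permutation test over libraries gave p = 0.333 for each pair of cell types, which is the smallest p that 2 libraries against 2 allow. The median number of reads per CpG ran from 34 in C-iPSC 2 to 76 in 4F-iPSC 2. Of the summed reads, 6.16% were methylated in C-iPSCs, with a 95% Wilson interval of 4.72% to 8.01%. The interval leaves out the spread between libraries and is too narrow even for counting error. A fragment is counted at several of these CpGs, and reads from PCR are not independent molecules.

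Each of the 11 CpGs of Peg10 exon 1 had this order of cell types. With the replicates summed, their levels ran from 20.0% to 31.2% in mESCs, from 2.44% to 21.6% in C-iPSCs and from 57.4% to 69.9% in 4F-iPSCs. The highest difference between 4F-iPSCs and C-iPSCs was at position 4747370, which lies in the Peg10 sequence shown above. Its level was 16.4% and 29.3% in the mESC libraries, 4.08% and 0% in the C-iPSC libraries, and 61.1% and 56.4% in the 4F-iPSC libraries. The 0% in C-iPSC 2 rests on 33 reads and allows a level of up to 9.09%, taking 3 counts as the limit. This CpG was 56.2 points higher in 4F-iPSCs than C-iPSCs, higher in both libraries (quasi-binomial model with limma, adjusted p = 6.74e-05). CpGs named for the highest difference were picked by it, so their p-values are no separate support. The lowest difference was at 4747355, a CpG at an MspI site, at 39.9 points, where the model's adjusted p was 0.187. Of 4 CpGs that share the highest number of reads, 334, the first, 4747363, was at 58.0% in 4F-iPSCs, 20.0% in mESCs and 4.76% in C-iPSCs.

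**Figure D1:**
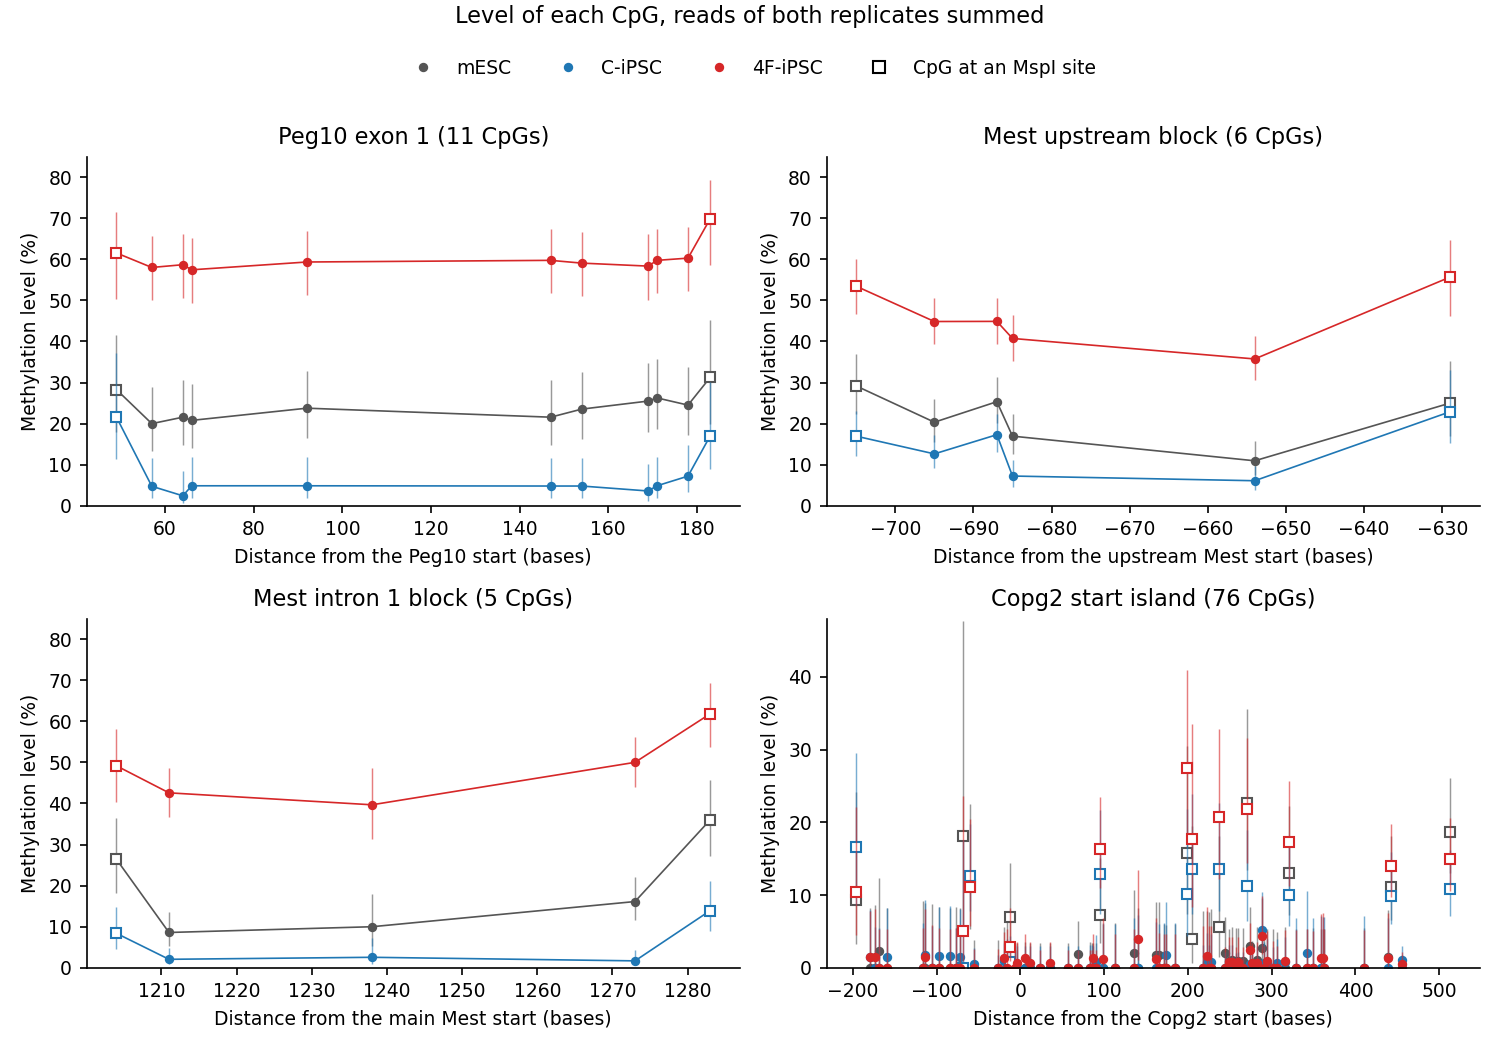
Methylation level (%) of each compared CpG against its distance in bases from a transcript start, in 4 panels, with the reads of both replicates summed. Colours stand for cell types, vertical bars for 95% Wilson intervals and open squares for CpGs at MspI sites. In the Peg10 and Mest panels 4F-iPSCs lie above mESCs and mESCs above C-iPSCs at each CpG, while the Copg2 panel, on a shorter axis, is low, with its higher levels mostly at MspI sites.

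Mest, expressed in mesoderm, showed the same order of cell types on either side of its unmeasured islands. In the upstream block the mean over 6 CpGs was 22.7% and 18.1% in mESCs 1 and 2. It was 12.2% and 15.7% in C-iPSCs 1 and 2 and 42.1% and 49.7% in 4F-iPSCs 1 and 2. The cell types did not overlap, but the closest C-iPSC and mESC libraries were only 15.7% and 18.1%. The means were 20.4% ± 3.22, 13.9% ± 2.45 and 45.9% ± 5.35 (SD, n = 2 libraries) in mESCs, C-iPSCs and 4F-iPSCs. 4F-iPSCs stood 32.0 points above C-iPSCs and 25.5 points above mESCs, beyond the spread between replicates (exact permutation p = 0.333 for each, the smallest possible). C-iPSCs minus mESCs came to -6.48 points, against SDs of 2.45 in C-iPSCs and 3.22 in mESCs, and to -4.21 points without mESC 1.

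In the Mest intron block the mean over 5 CpGs was 20.2% and 17.7% in mESCs 1 and 2. It was 5.31% and 6.31% in C-iPSCs 1 and 2 and 48.7% and 48.6% in 4F-iPSCs 1 and 2. Here too no library of one cell type overlapped another, and replicates lay close together. The means were 48.7% ± 0.0148 in 4F-iPSCs, 18.9% ± 1.79 in mESCs and 5.81% ± 0.703 in C-iPSCs (SD, n = 2 libraries). The differences were 42.8 points for 4F-iPSCs above C-iPSCs and 29.7 points for 4F-iPSCs above mESCs, and C-iPSCs minus mESCs came to -13.1 points, each larger than the SD of either group (exact permutation p = 0.333, the smallest possible).

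Single CpGs of the Mest blocks repeated the order with the replicates summed. By library, C-iPSCs lay below mESCs without overlap at 4 of 6 upstream CpGs. At 30732801, one of the others, mESC 2 was at 16.1% and C-iPSC 2 at 18.8%. In the intron, position 30739323 had the highest difference between the kinds of iPSC. Its level was 52.7% and 47.2% in 4F-iPSCs, 17.3% and 13.6% in mESCs and 1.61% and 1.79% in C-iPSCs. It was 48.3 points higher in 4F-iPSCs than C-iPSCs (limma-based model, adjusted p = 1.80e-08). The lowest difference in the intron block was 37.1 points, at 30739288, and the CpG with the most reads, 30739261 with 683, differed by 40.5 points. In the upstream block the differences ran from 27.6 points, at 30732819, to 36.5 points, at 30732801, an MspI site. The most read CpG there, 30732852 with 795 reads, differed by 29.6 points.

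Of the 144 CpGs, 2 lie in a TGCCGC hexamer, and their levels did not resemble each other. The CpG in the Mest upstream block, at 30732811, was at 44.3% and 45.3% in 4F-iPSCs, 21.2% and 18.2% in mESCs and 13.7% and 11.5% in C-iPSCs. The CpG in the Copg2 island, at 30896908, had 0% in 5 libraries and 3.70% of 27 reads in mESC 2. Each was close to the other CpGs of its own stretch.

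The members outside these blocks and outside the Copg2 island were ordered in another way. They are 46 CpGs in the bodies of Sgce, Mest and Copg2, the last exon of Peg10, the sequence upstream of Mest and 1 position beyond Copg2, a set defined after levels had been seen. Their mean level was 49.1% and 54.1% in mESCs 1 and 2. It was 60.7% and 73.5% in C-iPSCs 1 and 2 and 81.3% and 84.3% in 4F-iPSCs 1 and 2. C-iPSCs were thus above mESCs here and below them in the Peg10 exon 1 and Mest blocks. The means were 51.6% ± 3.52, 67.1% ± 9.02 and 82.8% ± 2.11 (SD, n = 2 libraries). C-iPSCs stood 15.5 points above mESCs, a value that became 9.13 points without C-iPSC 2 and 22.7 points without C-iPSC 1. 4F-iPSCs stood 31.2 points above mESCs and 15.7 points above C-iPSCs, the latter 9.37 points without C-iPSC 1 and 22.0 points without C-iPSC 2. The exact permutation p was 0.333 for each. Without their 25 MspI sites the means were 76.0% in 4F-iPSCs, 40.9% in mESCs and 57.3% in C-iPSCs.

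Within each library the Peg10 exon 1 block and the 2 Mest blocks (22 CpGs) were less methylated than those 46 CpGs. The gap was wider in C-iPSCs than in mESCs and 4F-iPSCs, which overlapped when all these CpGs were used. Those blocks minus the others came to -28.2 and -29.9 points in mESCs 1 and 2. The same value was -51.2 and -65.9 points in C-iPSCs 1 and 2 and -28.9 and -29.3 points in 4F-iPSCs 1 and 2. Without MspI sites, which are 6 of the 22 CpGs and 25 of the 46, it was -24.0 and -24.4 points in 4F-iPSCs, -19.2 and -21.9 points in mESCs and -43.6 and -60.2 points in C-iPSCs. The Mest blocks and the 46 CpGs were set apart after levels had been seen, so this gap is a description and partly restates that choice. The whole set of 1106981 CpGs had mean levels of 32.8% and 34.1% in 4F-iPSCs, 20.5% and 22.2% in mESCs and 25.9% and 29.8% in C-iPSCs, the same order of cell types as at the 46 CpGs.

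**Figure D2:**
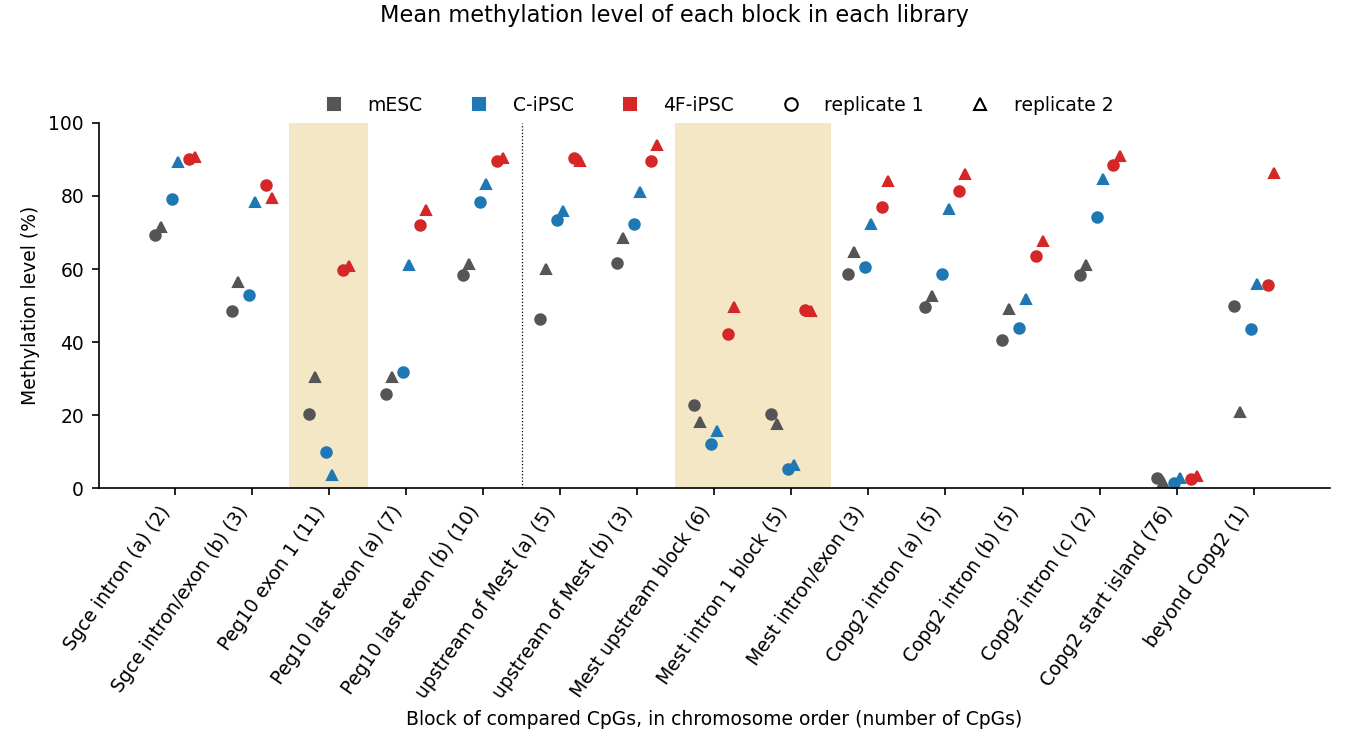
Mean methylation level (%) in each of the 6 libraries, for the 15 blocks into which the compared CpGs fall when neighbours at most 300 bases apart are joined, in chromosome order, with the number of CpGs in brackets. Shading marks the Peg10 exon 1 and the 2 Mest blocks, where C-iPSCs are lowest, and the dotted line separates the windows.

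Some bodies of the genes differed more than others. In the last exon of Peg10, 7 CpGs from 4755338 to 4755445 had levels of 72.2% and 76.1% in 4F-iPSCs, 25.8% and 30.4% in mESCs and 31.9% and 61.1% in C-iPSCs. C-iPSC 1 was close to mESCs and C-iPSC 2 was nearer to 4F-iPSCs. Compared with each other by Fisher's exact test and a level difference over 0.333, the C-iPSC replicates differed at 2 of 140 members, against 0.838% of CpGs genome-wide, and both lay in this stretch. At 4755364 C-iPSC 1 had 16.1% of 62 reads and C-iPSC 2 had 62.7% of 59 reads. At 4755406 they had 32.3% of 62 reads and 73.7% of 57 reads. No member was called between the mESC replicates (0 of 135, against 0.653% genome-wide) or between the 4F-iPSC replicates (0 of 143, against 0.322%).

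The next 10 CpGs of the Peg10 last exon, up to 4756288, were higher and steadier, at 89.7% and 90.5% in 4F-iPSCs, 58.3% and 61.2% in mESCs and 78.4% and 83.2% in C-iPSCs. In Sgce, 2 intron CpGs, both at MspI sites, were at 90.0% and 90.7% in 4F-iPSCs, 69.3% and 71.5% in mESCs and 79.2% and 89.4% in C-iPSCs. Another 3 Sgce CpGs, in an intron and an exon, were at 83.0% and 79.4% in 4F-iPSCs, 48.6% and 56.5% in mESCs and 52.9% and 78.4% in C-iPSCs, so that C-iPSC 1 lay within the mESC range. In the Sgce and Peg10 bodies 4F-iPSCs were thus highest throughout.

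Around Mest and along Copg2, a long gene whose end overlaps the end of Mest on the other strand, the levels were ordered alike. A block of 5 CpGs over the pseudogene Gm14528, the most distant one upstream of Mest, was at 90.3% and 89.6% in 4F-iPSCs, 46.2% and 60.0% in mESCs and 73.3% and 75.8% in C-iPSCs. The first block in the long body of Copg2 was at 81.4% and 86.1% in 4F-iPSCs, 49.7% and 52.6% in mESCs and 58.7% and 76.5% in C-iPSCs. In the second Copg2 block, C-iPSCs and mESCs overlapped, at 43.8% and 51.8% against 40.7% and 49.0%, while 4F-iPSCs were at 63.5% and 67.6%. The last Copg2 block (2 CpGs, both at MspI sites) was at 88.6% and 90.8% in 4F-iPSCs, 58.3% and 61.2% in mESCs and 74.1% and 84.5% in C-iPSCs.

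Between the Gm14528 block and the Mest upstream block, 3 intergenic CpGs, all at MspI sites, were at 89.6% and 94.0% in 4F-iPSCs, 61.8% and 68.4% in mESCs and 72.3% and 81.2% in C-iPSCs. In the Mest body, 3 CpGs were at 76.9% and 84.1% in 4F-iPSCs, 58.7% and 64.7% in mESCs and 60.5% and 72.2% in C-iPSCs. C-iPSCs and mESCs overlapped in the Mest body, where the 72.2% of C-iPSC 2 rests on 11 reads over the 3 CpGs. They also overlapped at the lone CpG beyond Copg2, an MspI site, which had 6 reads in mESC 1. That CpG was at 55.6% and 86.4% in 4F-iPSCs, 50.0% and 20.8% in mESCs and 43.6% and 55.9% in C-iPSCs. There 4F-iPSCs overlapped C-iPSCs as well.

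The start of Copg2 was low in all libraries. The mean over the 76 CpGs of its island was 2.66% and 1.62% in mESCs 1 and 2. It was 1.46% and 2.84% in C-iPSCs 1 and 2 and 2.47% and 3.37% in 4F-iPSCs 1 and 2. All 3 cell types overlapped, and no 2 of them differed by more than 0.780 points, about the SD between replicates. The means were 2.14% ± 0.738, 2.15% ± 0.975 and 2.92% ± 0.636 (SD, n = 2 libraries), with exact permutation p = 1.00 for C-iPSCs against mESCs and p = 0.667 for both comparisons of 4F-iPSCs. Without C-iPSC 1, C-iPSCs stood 1.02 points above mESCs, and without C-iPSC 2 the difference was -0.676 points. With 1 library left out, 4F-iPSCs minus mESCs ran from 0.125 points, without mESC 2, to 1.55 points, without 4F-iPSC 1. 4F-iPSCs minus C-iPSCs ran from 0.0222 points, without C-iPSC 1, to 1.46 points, without C-iPSC 2. The CpG with the most reads in the island, 30896283 with 844, was at 0% in mESCs (116 and 95 reads), which allows up to 1.42%, 1.01% in C-iPSCs and 0.593% in 4F-iPSCs.

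CpGs at MspI sites, which end the sequenced fragments, were read at other levels than CpGs inside them. In the Copg2 island the 12 CpGs at MspI sites averaged 12.8% and 17.9% in 4F-iPSCs, 15.0% and 8.17% in mESCs and 8.56% and 12.1% in C-iPSCs. The other 64 CpGs were at 0.533% and 0.638% in 4F-iPSCs, 0.348% and 0.388% in mESCs and 0.132% and 1.10% in C-iPSCs. Of the methylated reads of the island, 163 of 201 in 4F-iPSCs, 92 of 113 in mESCs and 117 of 149 in C-iPSCs were at its MspI sites. Both the highest and the lowest difference between the kinds of iPSC in the island were at such sites, 17.2 points at 30896540 (adjusted p = 0.748 in the limma-based model) and -6.25 points at 30896935 (adjusted p = 0.935).

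Over all compared CpGs the MspI sites averaged 54.96% and 60.03% in 4F-iPSCs, 39.6% and 40.6% in mESCs and 45.2% and 54.2% in C-iPSCs, and the other CpGs 21.8% and 21.2%, 11.1% and 13.6%, and 16.5% and 18.6%, but the 2 kinds of CpG do not lie in the same places. To see what MspI sites read where other CpGs are low, 13042 promoters were picked whose other CpGs averaged under 5% in every library. There the median at MspI sites was 9.96% and 19.0% in 4F-iPSCs, 12.4% and 10.0% in mESCs and 9.45% and 13.7% in C-iPSCs. The median at the other CpGs of these promoters, low by that choice, was 0.477% and 0.723% in 4F-iPSCs, 0.406% and 0.474% in mESCs and 0.426% and 0.513% in C-iPSCs. Among the 11 blocks of the windows that hold both kinds of CpG, the MspI sites were higher in 55 of 66 pairs of block and library. The cause of these levels was not tested.

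**Figure D3:**
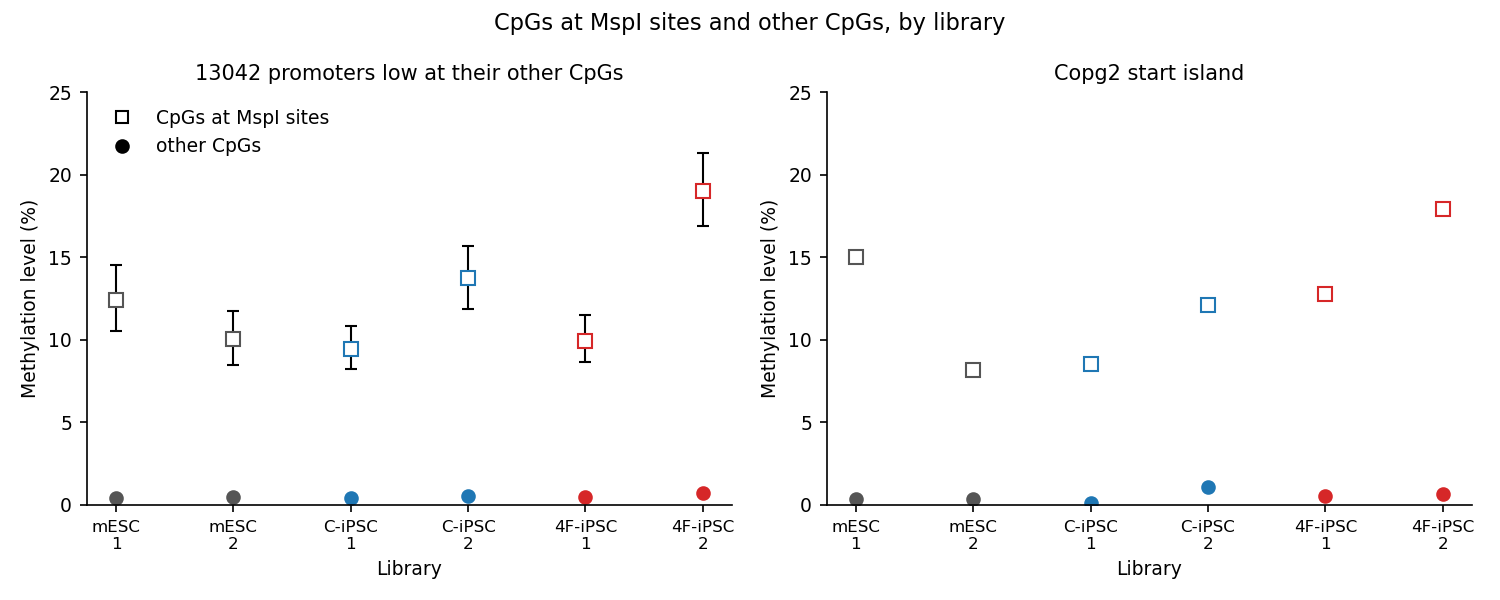
Methylation level (%) of CpGs at MspI sites (open squares) and of other CpGs (filled circles) in each library. The left panel gives the medians, with quartiles as bars for the MspI sites, over 13042 promoters picked as low at their other CpGs, and the right panel gives the means in the Copg2 start island. The open squares lie between 8.17% and 19.0% and the filled circles at or under 1.10%.

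Without the MspI sites the Peg10 exon 1 and Mest blocks kept their order. The other 9 CpGs of Peg10 exon 1 averaged 58.4% and 59.5% in 4F-iPSCs, 18.5% and 29.9% in mESCs and 7.50% and 0.654% in C-iPSCs. The other 4 CpGs of the Mest upstream block averaged 39.1% and 43.7% in 4F-iPSCs, 18.2% and 18.9% in mESCs and 9.50% and 12.2% in C-iPSCs. The other 3 of the Mest intron block averaged 46.1% and 41.9% in 4F-iPSCs, 12.4% and 9.71% in mESCs and 2.17% and 2.07% in C-iPSCs. The level of C-iPSC 2 at Peg10 was then no higher than its 1.10% at the Copg2 start, which was the highest of all libraries there. C-iPSC 1 differed, with 7.50% at Peg10 above its 0.132% at the Copg2 start.

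Single CpGs were called by the study's own rule, here named a strong call, with an unadjusted p under 0.05 in Fisher's exact test on summed reads and a level difference over 0.333. Fisher's test takes reads as independent molecules and leaves out the spread between libraries. Neighbouring CpGs are read on the same fragments, so counts of CpGs here and below are not counts of separate observations. A lower call needs a level over 0.333 in the cell type compared against. In 4F-iPSCs against mESCs, 31 of the 144 CpGs were called higher (21.5%, against 14.3% of all compared CpGs) and 0 lower (0.0333% of all). Of these, 20 lay in the Peg10-Sgce window and 11 in the Mest-Copg2 window. The 20 became 10 without mESC 1. Of the 31, Peg10 exon 1 held 9, the first block of the Peg10 last exon 6, the block upstream of Mest over Gm14528 4, and the Mest intron block 2. The quasi-binomial model called 59 of the 144 higher (41.0%, against 26.8% of all). It scales by a spread between libraries estimated over CpGs of the genome with intermediate levels in both cell types, 366826 in this comparison. The same value is applied to CpGs of lower level, as those of C-iPSCs at Peg10 exon 1. The spread of a CpG's own libraries counts little in it. The genome-wide value had a weight of 301 degrees of freedom in this comparison, 52.5 in 4F-iPSCs against C-iPSCs and no finite limit in C-iPSCs against mESCs, beside 2 for the CpG itself. The lead over the background was thus modest for the members as a whole, which include the 76 low CpGs of the Copg2 island with 0 calls by either rule. Of the 22 CpGs of the Peg10 exon 1 and Mest blocks, 11 had a strong call (50.0%), and of the 46 other members 20 (43.5%). The model called 21 of the 22 (95.5%) and 38 of the 46 (82.6%). These sets were defined after levels had been seen.

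In 4F-iPSCs against C-iPSCs, 19 of the 144 CpGs were called higher (13.2%, against 1.35%) and 0 lower (0.0285% of all). The Peg10 exon 1 and Mest blocks held most of them, with 11 of 11 CpGs of Peg10 exon 1, 5 of 5 of the Mest intron block and 2 of 6 of the Mest upstream block. These stretches span only 135, 80 and 77 bases, so the CpGs within each share fragments. Among the 46 other members 1 was called (2.17%). The model called 25 of the 144 higher (17.4%, against 2.43%), of which 20 were among the 22 CpGs of the Peg10 exon 1 and Mest blocks and 5 among the 46 others (10.9% of them).

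In C-iPSCs against mESCs, 2 of the 144 CpGs were called higher (1.39%, against 2.90%) and 0 lower (0.0374% of all). The 2 called CpGs were in the Peg10 last exon, at 4755946 and 4755994, and the count in the Peg10-Sgce window became 0 without mESC 1, 0 without C-iPSC 2 and 8 without C-iPSC 1. The count of 0 in the Mest-Copg2 window became 1 without C-iPSC 1 and 1 without mESC 2. The model called 13 higher (9.03%, against 6.23%), none in the Peg10 exon 1 and Mest blocks, and 1 lower (0.694%, against 0.0461%). Among the 13 was 4755364 (limma-based adjusted p = 0.0437), where the C-iPSC replicates, as given above, stood far apart. The 1 lower CpG was 30739323 in the Mest intron, at -14.4 points (limma-based adjusted p = 0.0108). At Peg10 exon 1 the model called no single CpG lower in C-iPSCs. The strong rule could not call one there, since the mESC levels, at most 31.2% with the replicates summed, leave no room for a drop over 0.333.

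A count of CpGs where the libraries of a pair of cell types did not overlap gives the direction without a threshold. C-iPSCs lay below mESCs at 23 of 144 CpGs (16.0%, against 4.25% of all) and above at 34 (23.6%, against 31.8%). Of the 23, 19 were in the Peg10 exon 1 and Mest blocks, at 10 of 11 CpGs of Peg10 exon 1, 4 of 6 of the Mest upstream block and 5 of 5 of the Mest intron block, and none was among the 46 other members, 29 of which lay above. 4F-iPSCs lay above mESCs at 72 of 144 (50.0%, against 44.3%) and below at 2 (1.39%, against 2.55%). They lay above C-iPSCs at 63 (43.8%, against 30.5%), of which 36 were among the 46 other members (78.3% of them), and below at 0 (against 3.54%). Both comparisons with mESCs share the mESC libraries.

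Runs of at least 3 strong calls with gaps of at most 300 bases formed 4 regions in 4F-iPSCs against mESCs, all higher in 4F-iPSCs, of 19582 such regions in the genome. Their 22 calls made up 15.3% of the 144 CpGs, against 7.62% of all compared CpGs. They covered Peg10 exon 1 (4747363 to 4747489, 9 calls), 2 parts of the Peg10 last exon (4755338 to 4755445, 6 calls, and 4755946 to 4756288, 3 calls) and the Gm14528 block (30720053 to 30720099, 4 calls). In 4F-iPSCs against C-iPSCs there were 2, Peg10 exon 1 (4747355 to 4747489, 11 calls) and the Mest intron block (30739254 to 30739333, 5 calls), of 752 in the genome. The 16 calls came to 11.1% of the members, against 0.316% of all. No region formed in C-iPSCs against mESCs, where 0.859% of all compared CpGs lay in regions higher in C-iPSCs. Peg10 exon 1 was the one stretch covered in both comparisons of 4F-iPSCs.

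Among promoters in general, taken as 1 kb to each side of a transcript start with at least 10 compared CpGs, the median level of 14803 was 3.51% in 4F-iPSCs, 2.71% in mESCs and 2.79% in C-iPSCs. The Peg10 promoter holds the 11 CpGs described above. For C-iPSCs minus mESCs, 7 other promoters lay at least as far down as its -18.5 points. For 4F-iPSCs minus mESCs, 183 others lay at least as far up as its 34.9 points, and for 4F-iPSCs minus C-iPSCs 2 others reached its 53.4 points.

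The promoters nearest to that of Peg10 over the 6 library levels, among 14799 candidates, were those of Airn, Nap1l5, Nnat, Zrsr1 and Meg3. Their root mean square differences from Peg10 were 5.51, 5.75, 7.47, 7.79 and 8.01 points. Airn, a long non-coding RNA, was at 55.2% and 62.9% in 4F-iPSCs, 30.8% and 35.2% in mESCs and 5.41% and 3.15% in C-iPSCs. Meg3, of the Dlk1-Dio3 imprinted cluster, is not on the list of maternally methylated promoters used below. It was at 56.6% and 63.35% in 4F-iPSCs, 35.4% and 40.4% in mESCs and 6.985% and 8.975% in C-iPSCs. For the Mest upstream block, the nearest were Gm23134 at 4.01 points, Nnat at 5.74, Wdr20rt at 5.89 and the microRNA genes Mir99b and Mirlet7e at 6.35 each. Gm23134 was at 46.2% and 54.9% in 4F-iPSCs, 19.1% and 18.9% in mESCs and 10.5% and 9.62% in C-iPSCs. Wdr20rt was at 40.3% and 48.05% in 4F-iPSCs, 15.2% and 14.1% in mESCs and 17.5% and 25.7% in C-iPSCs, with C-iPSCs above mESCs, unlike the Mest block. Mir99b and Mirlet7e share their CpGs, so they count as 1 pattern. Gm23134 and Nnat start close together on chromosome 2, at 157562447 and 157560078, so they are not separate loci.

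Other imprinted promoters that are methylated on the maternal allele were taken from a list of 12, all with a compared CpG, of which 8 had at least 10. Peg3, Snrpn, Impact and Kcnq1ot1 had 1 to 9 and were counted separately. In 7 of the 8 both C-iPSC libraries lay below both mESC libraries (6.92% of the 14803 promoters did), with Nespas as the exception, where C-iPSCs lay above. In 7 of the 8 both 4F-iPSC libraries lay above both mESC libraries (31.2% of all), the exception being Peg13, where they lay below. In 7 of the 8 4F-iPSCs lay above C-iPSCs (20.5% of all), with Nespas overlapping. With the 4 others included, the counts were 11, 10 and 11 of 12. Kcnq1ot1 (7 CpGs) was the other exception, where 4F-iPSCs, at 30.0% and 38.1%, overlapped mESCs, at 35.3% and 26.9%. The medians of the 8 were 52.4% in 4F-iPSCs, 24.0% in mESCs and 5.99% in C-iPSCs (51.7%, 21.6% and 3.73% without MspI sites), with values in C-iPSCs from 3.81% at Zrsr1 to 52.3% at Peg13.

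The promoters of that list varied among themselves. Nap1l5, also on chromosome 6, was at 54.7% and 70.7% in 4F-iPSCs, 26.7% and 25.8% in mESCs and 7.58% and 5.92% in C-iPSCs. Plagl1, a zinc-finger transcription factor, was at 49.2% and 55.5% in 4F-iPSCs, 41.9% and 39.5% in mESCs and 6.23% and 9.08% in C-iPSCs. Peg13, a non-coding RNA, was at 67.8% and 70.3% in 4F-iPSCs, 76.1% and 78.9% in mESCs and 46.3% and 58.3% in C-iPSCs. Nespas was under 8% in every library. The levels of Peg10 lay within the range of the list in each cell type.

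**Figure D4:**
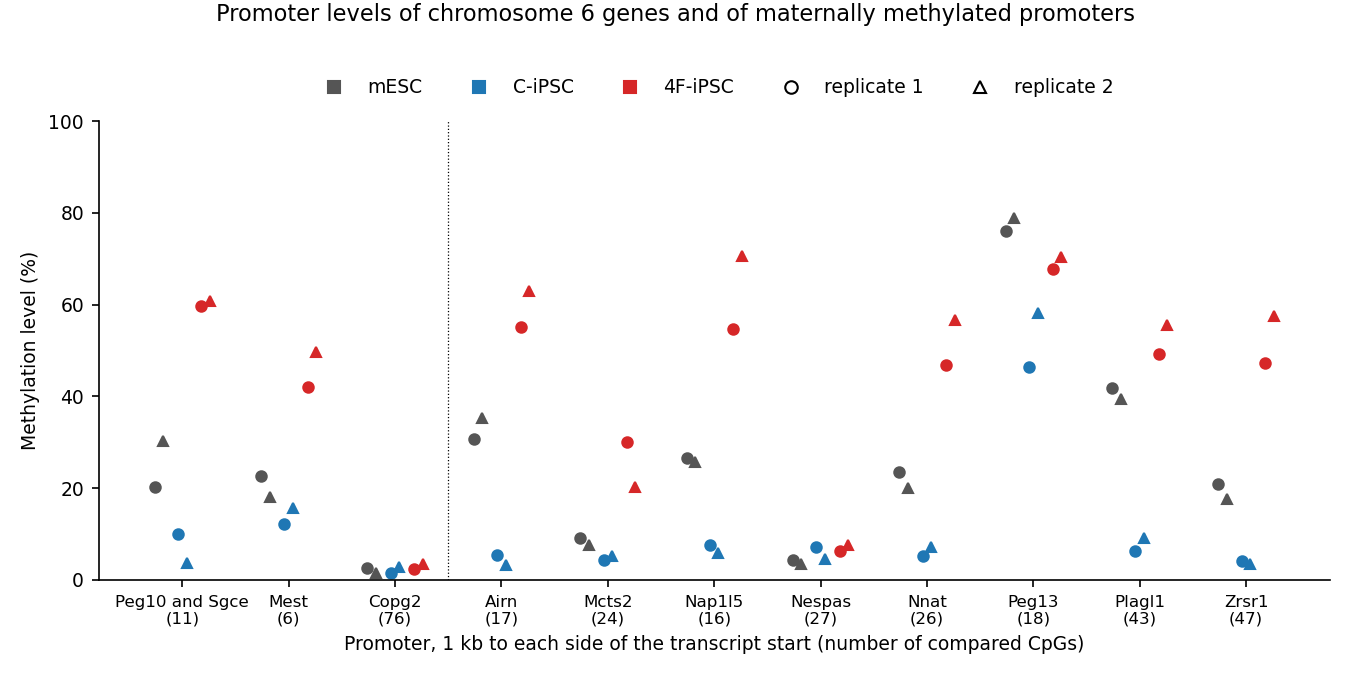
Mean methylation level (%) of promoters in each library, with circles for replicate 1 and triangles for replicate 2, for the chromosome 6 genes (left of the dotted line, where Mest stands for 6 CpGs upstream of an alternative start and not for its unmeasured islands) and for the 8 maternally methylated promoters with at least 10 compared CpGs. Peg10, Mest and 6 of the 8 place C-iPSCs lowest and 4F-iPSCs highest, while Copg2 and Nespas are low in all libraries and Peg13 is highest in mESCs.

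The cell type labels were checked at promoters of marker genes, since bisulfite reads carry no expression. Of 5 pluripotency genes, Pou5f1, Nanog and Zfp42 had a compared CpG and Dppa3 and Tdgf1 had none. The Pou5f1 promoter (7 CpGs), of the gene for OCT4, was at 12.8% and 20.8% in 4F-iPSCs, 8.07% and 15.6% in mESCs and 6.26% and 7.65% in C-iPSCs. Without its 4 MspI sites it was at 6.46% and 13.6% in 4F-iPSCs, 0.265% and 4.46% in mESCs and 1.45% and 0.543% in C-iPSCs. Nanog (2 CpGs) was at 12.1% and 11.4% in 4F-iPSCs, 0% and 6.52% in mESCs and 11.3% and 7.85% in C-iPSCs. Zfp42 (7 CpGs) was at 7.79% and 15.7% in 4F-iPSCs, 4.13% and 6.33% in mESCs and 6.92% and 5.95% in C-iPSCs. Without MspI sites Nanog was at 4.60% and 4.69% in 4F-iPSCs, 0% in both mESC libraries and 0.926% and 0.952% in C-iPSCs, and Zfp42 at 3.47% and 1.96% in 4F-iPSCs, 0% in both mESC libraries and 0.988% and 0% in C-iPSCs. All 3 promoters were thus low, but 4F-iPSCs lay above C-iPSCs without overlap at 3 of 3 and above mESCs at 2 of 3. Of all promoters with at least 10 compared CpGs, 20.5% and 31.2% did so. The 3 marker promoters have fewer CpGs than that. The part of this shift of the marker promoters in the higher levels of 4F-iPSCs at the imprinted genes was not tested.

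Of 7 fibroblast genes, listed for feeder cells or fibroblasts that were not reprogrammed, Thy1, Col1a2, Twist1 and Snai2 had a compared CpG, and Col1a1, Prrx1 and S100a4 had none. Their median level was 12.2% in 4F-iPSCs, 8.45% in mESCs and 10.5% in C-iPSCs. Without their MspI sites, which are 2 of the 3 CpGs at each of Thy1, Col1a2 and Snai2, it was 3.14% in 4F-iPSCs, 0.692% in mESCs and 1.10% in C-iPSCs. No fibroblast library was at hand, so it is not known whether these promoters separate fibroblasts from pluripotent cells. The part of remaining feeder cells in the levels of the imprinted genes was therefore not tested.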

How the data were processed

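The deposited files give, for each library, per CpG the counts of all and of methylated reads, as made by the authors with BSMAP 2.90 on mm10 and MOABS from uniquely mapped pairs. A deposited fraction, methylated reads over reads, stands beside them and was matched by the counts to rounding. Levels of sets are means over CpGs per library. CpG islands were found in the GRCm38 sequence as windows of 200 bases with a GC share of at least 0.5 and a ratio of observed to expected CpGs of at least 0.6, in runs of at least 300 bases within 1 kb of a start. Cell types were compared by exact two-sided permutation over libraries, Fisher's exact test on summed reads, and a quasi-binomial model with dispersions shrunken by limma 3.58.1, called at a Benjamini-Hochberg adjusted p under 0.05 over all tested CpGs (SciPy 1.17.1, R 4.3.3). Intervals are Wilson intervals at 95%. Named CpGs are those with the highest and the lowest difference between 4F-iPSCs and C-iPSCs and with the most reads in each stretch; named promoters are the listed ones and the 5 nearest by root mean square difference. A CpG named outside this rule was chosen after its values were seen. The members and lists were chosen with earlier results of these data known. Fisher's test and the quasi-binomial model were tested on simulated data. Alternatives were the minimum of reads, pooled reads, each strand, a 1 kb promoter, other differences and tests, a replicate block and each library left out.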

Additional observations from a re-analysis of the deposited data

How the results depend on the processing

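Of 156 alternatives for 15 level differences, 131 moved the value by less than the spread between replicates, 25 by more, and 0 reversed a difference that exceeded the spread. At the Peg10-Sgce island, 4F-iPSCs minus mESCs came to 40.6 points on the - strand and to 29.8 to 40.0 points with a library left out, and C-iPSCs minus mESCs to -23.6 to -13.4 points with a library left out. At the Copg2 island, C-iPSCs minus mESCs ran from -0.676 to 1.02 points with a library left out, and 4F-iPSCs minus C-iPSCs was -0.0308 points without the CpGs at MspI sites. In the Mest upstream block, 4F-iPSCs minus mESCs was 21.5 points on the + strand. In the Mest intron block, C-iPSCs minus mESCs was -10.6 points on the + strand, -14.9 on the - strand, -8.92 without MspI sites and -14.4 to -11.8 with a library left out. There, 4F-iPSCs minus mESCs was 30.9 points from pooled reads, 28.1 on the + strand, 34.1 on the - strand, 33.0 without MspI sites and 28.5 to 31.0 with a library left out, and 4F-iPSCs minus C-iPSCs was 38.7 on the + and 49.0 on the - strand. For the 46 other members, C-iPSCs minus mESCs ran from 9.13 to 22.7 points and 4F-iPSCs minus C-iPSCs from 9.37 to 22.0 points with a library left out. The cause of these shifts was not tested.

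Strong calls kept within 1.5 times their count in 58 of 74 alternatives for the higher direction, and the lower direction stayed at 0 in 74 of 74. A lower call was out of reach wherever the cell type compared against stood under the difference asked for. In the Copg2 island, for example, mESCs reached at most 22.6% and C-iPSCs 16.7% with the replicates summed. In the Peg10-Sgce window, C-iPSCs above mESCs had 6 calls at a difference over 0.25, 0 over 0.5 and 0 to 8 with a library left out, and 4F-iPSCs above mESCs had 3 over 0.5 and 10 to 23 with a library left out. In the Mest-Copg2 window, C-iPSCs above mESCs had 4 calls over 0.25 and 0 to 1 with a library left out. There, 4F-iPSCs above mESCs had 21 over 0.25, 0 over 0.5 and 6 without MspI sites, and 4F-iPSCs above C-iPSCs had 13 over 0.25, 0 over 0.5 and 4 without MspI sites. With the replicate number as a replicate block, the Peg10-Sgce window had 2, 20 and 12 calls higher and the Mest-Copg2 window 0, 11 and 7, for C-iPSCs against mESCs, 4F-iPSCs against mESCs and 4F-iPSCs against C-iPSCs. The labels name nothing that libraries of the same number share. The differences between replicates 1 and 2, over 957681 CpGs, correlated at r = 0.118 between 4F-iPSCs and C-iPSCs, 0.0410 between C-iPSCs and mESCs and -0.226 between 4F-iPSCs and mESCs. Crossing the numbers for 4F-iPSCs against mESCs gave 20 and 11, as without a block, so these counts do not tell whether the libraries pair. Joining neighbours at most 100 bases apart gave 20 blocks in place of 15.

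The level of the Mest island could not be given, since no CpG of it was compared. The Mest blocks, the 46 other members, the sets without MspI sites, the gap of 100 bases and the crossed block were chosen after seeing the data. With 2 libraries a group no permutation test could pass its threshold. Depth limits single CpGs, with library medians of 36 to 71.5 reads per CpG over the 144 members.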
